A study of Mus musculus with 6 samples.

Results

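The miR-30 family is represented here by 5 assays, the mouse-named guide strands miR-30a, miR-30b, miR-30c, miR-30d and miR-30e, out of 350 miRNA assays on a quantitative PCR panel. Members were taken by assay name alone, and assays for passenger strands (names ending in *) were left out of the family count. A threshold cycle (Ct) below 35 in all 6 samples was required for testing, which 4 of the 5 members and 274 of 345 assays with normalized values met. miR-30a did not meet it.

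The cells were mouse CD8+ pMel-1 transgenic T cells, whose receptor recognises the melanoma antigen gp100, cultured for 3 days with the cells that primed them. In the DC-primed group (3 samples) the priming cells were bone marrow-derived dendritic cells matured with LPS. In the B cell-primed group (3 samples) they were splenic B cells loaded with hgp100(25-33), and both groups have 1 sample in each of 3 rounds. The labels give no animal, age or strain for a round and name no step that removed the priming cells before total RNA was extracted, so the p-values bear on the spread among these 6 samples alone, which may be technical.

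MicroRNAs of the miR-30 family are loaded into Argonaute proteins and repress mRNAs that pair with their seed, the bases near the 5′ end. Because members share this seed, they are held to share most of their targets. Among the targets described in lymphoid and other cells are Prdm1, which encodes Blimp-1, a transcription factor that drives plasma cell and effector T cell differentiation, and Becn1, a gene of autophagy. The guide strand comes from the 5′ arm of each hairpin and the passenger strand from the 3′ arm.

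The guide sequences are shown because the assays must tell apart RNAs that differ by few bases. RefSeq's table for GRCm38.p6 held 3 of the 5 guide strands, printed 5′ to 3′ with the seed (bases 2 to 8) in capitals; miR-30b and miR-30d are given by name.
miR-30a: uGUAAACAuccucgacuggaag
miR-30e: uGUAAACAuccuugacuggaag
miR-30c: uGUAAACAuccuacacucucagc
All 3 have the seed GUAAACA, which 4 of 1679 mature mouse miRNA names in that table share (0.238%), the other being miR-384-5p. Counted from 1 at the 5′ end, miR-30e and miR-30a differ at 1 of 22 bases, U13C, with the base of miR-30e written before the position. miR-30e and miR-30c differ at 5 of the 22 bases compared, which are U13A, G14C, G18C, G19U and A20C. All of these differences lie outside the seed and in the middle or 3′ part of the miRNA.

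The hairpins are shown because assays for both of their arms were on the panel, with the guide and then the passenger strand in capitals.
Mir30a: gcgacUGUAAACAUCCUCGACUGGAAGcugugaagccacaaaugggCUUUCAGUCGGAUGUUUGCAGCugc
Mir30e: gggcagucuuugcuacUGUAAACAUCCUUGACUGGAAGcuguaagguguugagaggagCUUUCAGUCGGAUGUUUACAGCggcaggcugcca
Mir30c-1: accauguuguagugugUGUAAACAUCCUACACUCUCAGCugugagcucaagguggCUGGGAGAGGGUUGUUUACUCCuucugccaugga
Mir30e (chr4:120772606-120772697, minus strand) and Mir30c-1 (chr4:120769534-120769622, minus strand) lie 2983 bases apart, both inside the Nfyc gene, which encodes a subunit of the transcription factor NF-Y. Mir30a (chr1:23272269-23272339, plus strand) overlaps no other gene in the RefSeq table. The guide of Mir30c-2 (chr1:23291701-23291784, plus strand) is identical to that of Mir30c-1, so the miR-30c assay reads both hairpins.

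Across the panel, 280 to 337 of 350 assays had a Ct below 35 in the DC-primed samples and 336 to 341 in B cell-primed cells. The DC-primed sample of round 3 stood apart, with the 280 and with a mean Ct over the tested assays of 30.5, where the other DC-primed samples had 26.3 and 28.4 and the B cell-primed samples 26.4 to 27.6. Levels below are minus dCt, where the authors subtracted 1 number per sample from each Ct; they are in log2 units, and a larger level is more miRNA. All 4 T cell markers looked at (miR-150, miR-146a, miR-155 and miR-181a) were below Ct 35 in every sample, though none of them is restricted to T cells. Their differences were all positive, with a median of 0.84, and none was called. Of the blood cell markers miR-142-5p and miR-142-3p, miR-142-5p differed by 0.59 and was not called, and miR-142-3p had no Ct in the DC-primed sample of round 3.

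The 4 tested guide strands were readily measured in both kinds of culture, and none differed by priming cell beyond the spread between samples. Their differences were -0.32 to 0.98, and limma, fitted over 274 assays with Benjamini-Hochberg adjustment, gave adjusted p-values of 0.971 to 0.991. It called 0 of the 4 members and 0 of 274 assays (0%), where 24 assays had an unadjusted p under 0.05 (8.76%) and none of the members did. The median difference was 0.36 over the 4 members, of which 3 were positive, and 0.07 over all tested assays, of which 146 were positive. What the mean difference hides is a large disagreement between rounds, in which all 4 members took part.

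miR-30b had the widest range of the 4 tested members. Its level was 5.51, 0.02 and -1.85 in DC-primed cells of rounds 1, 2 and 3, against 0.01, 1.64 and 1.84 in B cell-primed cells. The DC-primed samples of rounds 1 and 3 were the highest and the lowest of all 6, as for miR-30d, miR-30e and 36 of 274 assays (13.1%), and the groups overlapped. The means were 1.23 ± 3.83 (SD, n = 3) in DC-primed cells and 1.17 ± 1.00 (SD, n = 3) in B cell-primed cells, a difference of 0.06 ± 1.67 (SE), with a 95% confidence interval of -3.74 to 3.86 on the log2 scale. The DC-primed SD was the 3rd largest of 274 assays, and the raw Ct of miR-30b ran from 20.67 to 32.31, the 273rd of 274 ranges counted from the narrowest.

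miR-30c, whose guide comes from both Mir30c hairpins, had levels of 3.67, 0.24 and 0.28 in DC-primed cells of rounds 1, 2 and 3. In B cell-primed cells they were 1.20, 2.41 and 1.54. The DC-primed sample of round 1 was again the highest of all 6, as for every tested member and 57 of 274 assays (20.8%), and the other DC-primed samples were the lowest. The difference was -0.32 ± 1.01 (SE; 95% confidence interval -2.62 to 1.98), which is 0.80-fold with an interval of 0.16-fold to 3.93-fold.

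miR-30d had the highest mean level of the family in both groups. It stood at 4.77, 3.88 and 0.63 in DC-primed cells of rounds 1, 2 and 3, against 2.43, 2.46 and 2.39 in B cell-primed cells. The B cell-primed levels were nearly equal, with an SD of 0.036, the 3rd smallest of 274 assays in that group, where the median SD was 0.63. In DC-primed cells the SD was 2.18, so that 2 samples lay above and 1 below the whole B cell-primed range. The difference of 0.66 ± 1.05 (SE) had a 95% confidence interval of -1.72 to 3.05.

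miR-30e (assay mmu-miR-30e), the guide strand of the hairpin beside Mir30c-1, had the largest difference. Its levels were 2.76, 1.94 and -1.79 in DC-primed cells of rounds 1, 2 and 3, against -1.41, 1.45 and -0.09 in B cell-primed cells. The DC-primed samples of rounds 1 and 2 were the highest of the 6 and that of round 3 was the lowest. The difference of 0.98 ± 1.26 (SE), or 1.98-fold, had a 95% confidence interval of 0.27-fold to 14.5-fold, so these samples cannot tell a several-fold difference in either direction from none.

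**Figure D1:**
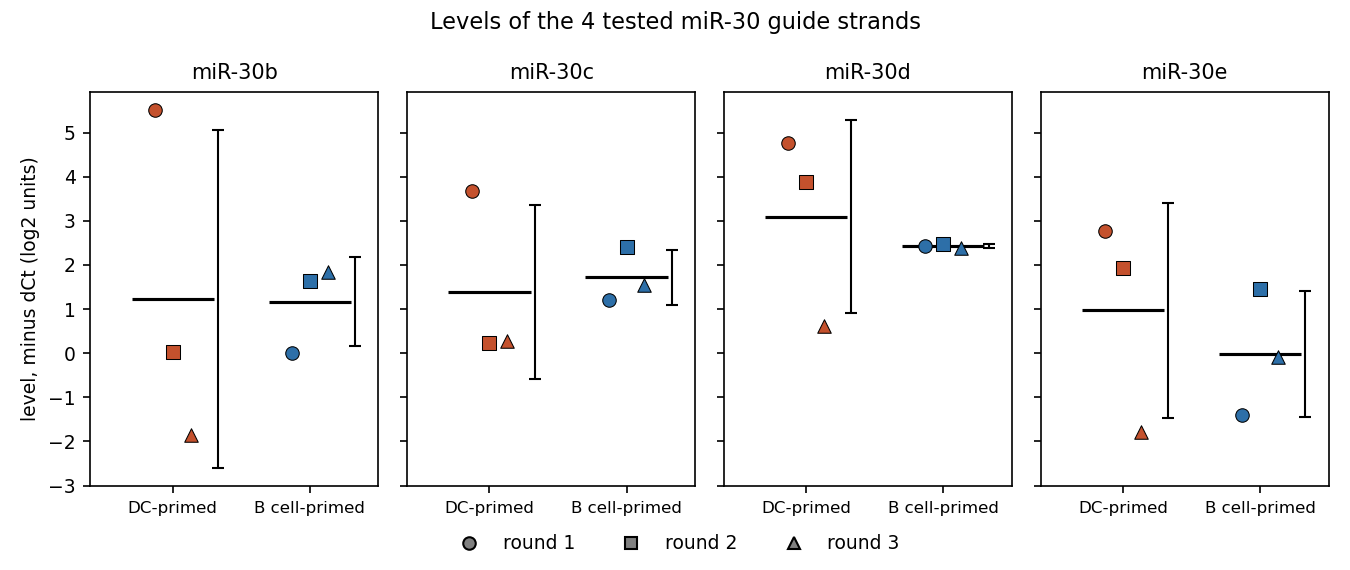
Level (minus dCt, log2 units) of each tested miR-30 guide strand, with 1 point per sample, point shape for the round, a line at the group mean and a bar for the SD (n = 3 each). In every panel the DC-primed sample of round 1 is the highest of the 6 samples and the DC-primed spread exceeds the B cell-primed spread.

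Within a round, the sign of the difference was common to the family in rounds 1 and 3. In round 1 the DC-primed sample was higher than the B cell-primed sample by 5.50 for miR-30b, 4.17 for miR-30e, 2.47 for miR-30c and 2.34 for miR-30d. These were the 5th, 10th, 25th and 27th largest round 1 differences among 274 assays. In round 3 the differences were -3.69 for miR-30b, -1.76 for miR-30d, -1.70 for miR-30e and -1.26 for miR-30c. In round 2 they were mixed, at 1.42 for miR-30d, 0.49 for miR-30e, -1.62 for miR-30b and -2.17 for miR-30c.

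A difference of at least 1 log2 unit toward the DC-primed sample in round 1 together with at least 1 toward the B cell-primed sample in round 3 was met by all 4 tested members and by 22 of 274 assays (8.03%). Asking for the signs alone, all 4 members and 66 of 274 assays (24.1%) met it. This pattern was chosen after the values were seen, and the members share a per-sample number and similar sequences, so they are not 4 independent cases. The family median by round was 3.32, -0.57 and -1.73, against -0.27, 0.45 and -0.03 over all tested assays. The SD was larger in DC-primed than in B cell-primed samples for all 4 members, as it was for 218 of 274 assays (79.6%).

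**Figure D2:**
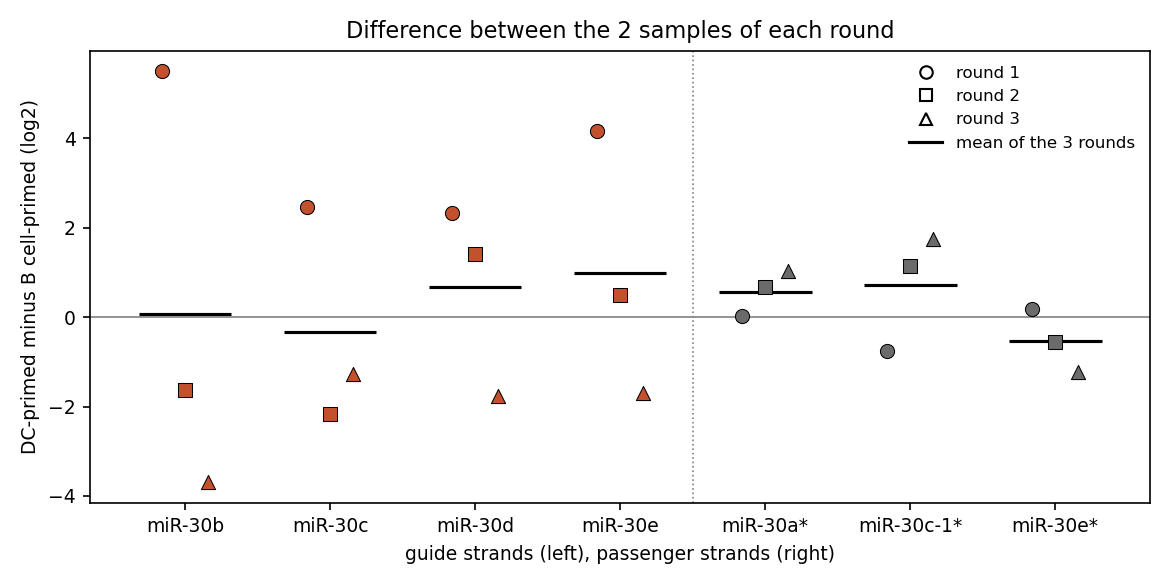
DC-primed minus B cell-primed level (log2) within each round for the 4 tested guide strands and the 3 measured passenger strands, with point shape for the round and a line at the mean of the 3 rounds. For the guide strands every round 1 point is above 0 and every round 3 point below it, while the passenger strands lie between -1.23 and 1.75.

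The group difference therefore turned on single samples. Without the DC-primed sample of round 1, the median of the 4 members was -0.82 and miR-30b differed by -2.08 (limma unadjusted p = 0.044, adjusted p = 0.223). Without the DC-primed sample of round 3, the median was 1.75, with miR-30e at 2.36 and miR-30d at 1.90 (limma unadjusted p = 0.0277 and 0.0245, adjusted p = 0.262 and 0.258). No member was called in either case. The sign also depended on the scaling. Without normalization all 4 members were negative, from -1.65 for miR-30c to -0.35 for miR-30e, where the median of all assays was -1.26. With RNY3 and snoRD47, a pair of small control RNAs, as the reference, all 4 were positive, from 0.91 for miR-30c to 2.21 for miR-30e, where the median of all assays was 1.30.

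**Figure D3:**
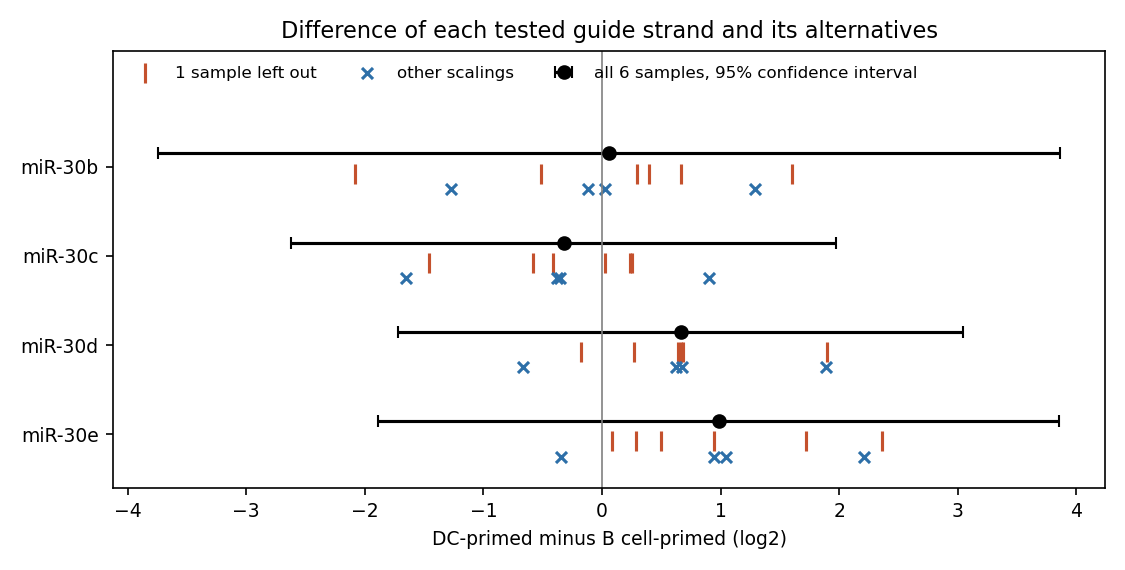
DC-primed minus B cell-primed difference (log2) of each tested guide strand, with the limma estimate and its 95% confidence interval as the black point and bar, the values with 1 sample left out as ticks and those under other scalings as crosses. The intervals all include 0, and ticks or crosses fall on both sides of 0 for every member.

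Marker lists of several cell types also differed between rounds. The median difference of the 4 T cell markers was 2.29, 1.78 and -1.38 in rounds 1, 2 and 3. Their summed linear level was 323, 381 and 16.5 in DC-primed cells, against 62.4, 105 and 72.9 in B cell-primed cells. Each of them was lower in the DC-primed sample of round 3, as the miR-30 guide strands were. In every other sample miR-155 had the highest level of the 4 and weighed most in the sum. Its level was 8.05, 8.42 and 2.58 in DC-primed cells, against 5.56, 6.54 and 5.83 in B cell-primed cells. The median difference of the 4 tested myeloid and dendritic cell markers was 5.39, 1.65 and 0.875 in rounds 1, 2 and 3. The other 2 on the list, miR-223 and miR-146b, failed the Ct limit in the DC-primed sample of round 3 alone. The round 3 median therefore leaves out the markers that were past the limit in that very sample. The summed linear level of the 6 markers on the list was 153, 23.5 and 2.51 in DC-primed cells of rounds 1, 2 and 3, against 1.63, 3.13 and 1.16 in B cell-primed cells. In round 3, 4 of the 6 were higher in the DC-primed sample, from 0.085 for miR-10a to 2.57 for miR-147. The 2 that were not tested were lower on their levels as given, at -1.49 for miR-223 and -4.09 for miR-146b. These values rest on a DC-primed Ct of 36.99 and 38.77, both past the limit. With these Ct held at the limit, miR-146b stayed lower by a smaller amount, and the sign for miR-223 was not determined. All 6 were higher in the DC-primed sample of round 1, from 3.46 for miR-10a to 11.1 for miR-223. Over the 3 rounds all 4 tested markers had positive differences and none was called, with miR-147 the largest at 3.25 and miR-10a the smallest at 2.00. The mean of the 4 miR-30 guide strands was 4.18, 1.52 and -0.69 in the same DC-primed samples, against 0.56, 1.99 and 1.42 in B cell-primed cells. The part of any of these cell types in the miR-30 levels was not tested, and in such bulk RNA fewer cells of a type and less RNA per cell cannot be told apart. Of 6 stromal and endothelial markers 5 were measured, with a summed level of 0.507 to 2.77 in DC-primed samples and 1.20 to 1.31 in B cell-primed samples. The erythroid pair miR-144 and miR-451 summed to 0.237 to 0.604 in DC-primed samples and 0.149 to 0.244 in B cell-primed samples. The 3 B cell-associated markers summed to 18.8 to 49.7 in DC-primed samples and 11.5 to 18.1 in B cell-primed samples. Of these 3, miR-150 had the highest level in every sample and weighed most in the sum. Over the 3 rounds the median difference was 0.33 over the 4 tested stromal and endothelial markers, of which 2 were positive and 2 negative. It was 1.31 for miR-451 as the tested erythroid marker and 0.80 over the B cell-associated markers, which share miR-150 with the T cell list. None was called. miR-126-3p, the stromal and endothelial marker measured but not tested, was past the Ct limit in DC-primed cells of rounds 2 and 3. Its raw Ct was 30.43, 39.81 and 38.99 in DC-primed cells of rounds 1, 2 and 3. In B cell-primed cells it was 29.41, 28.98 and 31.86. Its level was lower in the DC-primed sample of each round, also with its Ct held at the limit.

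miR-30a, left out of the tests by its Ct, split by round. Its raw Ct was 41.62, 44.31 and 29.67 in DC-primed cells of rounds 1, 2 and 3, against 42.30, 44.61 and 26.55 in B cell-primed cells. Both samples of round 3 were thus near the other members, while all 4 samples of rounds 1 and 2 were past 41 cycles. A Ct past 35 is used below only as a limit, held at 35.

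Set against miR-30e, from which it differs at a single base, miR-30a came up at least 11.6 and 8.48 cycles later in DC-primed cells of rounds 1 and 2. In B cell-primed cells of those rounds it came up at least 7.24 and 9.33 cycles later. In round 3 it came up earlier than miR-30e, by 2.58 cycles in the DC-primed and 1.17 cycles in the B cell-primed sample. In rounds 1 and 2 the miR-30e assay reached its threshold at a Ct of 23.42 to 27.76 in the same RNA. The mean level of miR-30a in round 3 exceeded that in rounds 1 and 2 by at least 8.90 log2 units. With every Ct held at 35 at most, this was the largest shift of 345 assays; the next was miR-424* (human-named) at 7.69, and the median was 0.20. On this mean over both groups the other 4 members shifted the opposite way, by -0.97 for miR-30c to -2.13 for miR-30e. B cell-primed cells alone showed no such common fall. There the round 3 level was the highest of the 3 rounds for miR-30b (1.84). It lay between those of rounds 1 and 2 for miR-30c (1.54) and miR-30e (-0.09). For miR-30d it was 2.39, against 2.43 and 2.46 in rounds 1 and 2. The cause of the shift was not tested, and the sources used here do not say whether primers or plates changed between rounds.

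**Figure D4:**
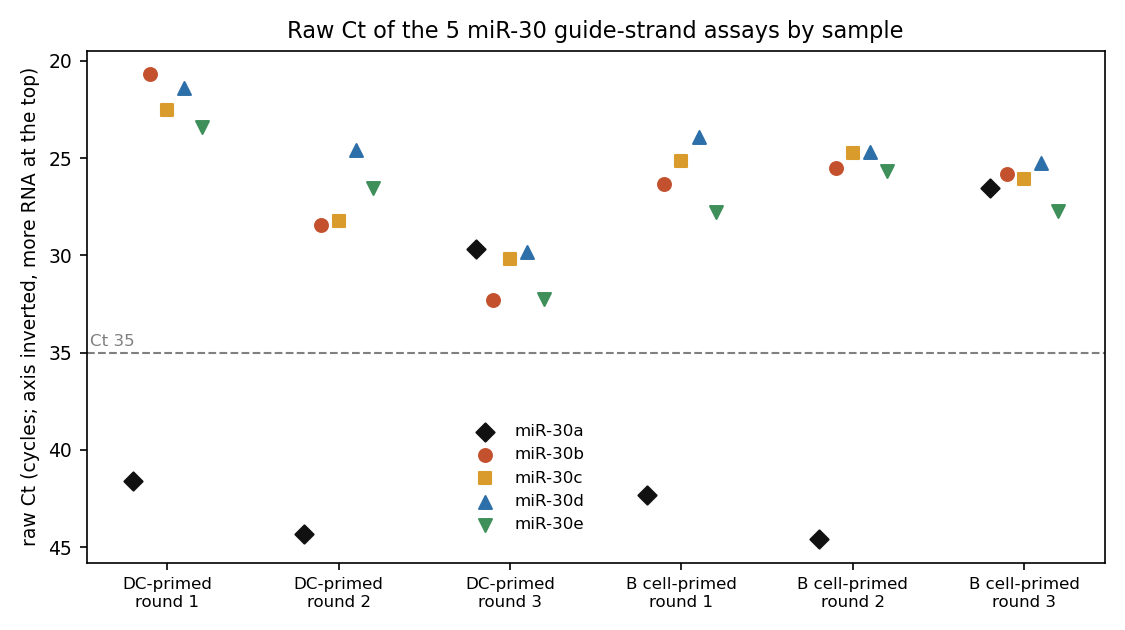
Raw Ct of the 5 guide-strand assays in each of the 6 samples, on an inverted axis so that more RNA is higher, with the limit of 35 dashed. miR-30a is past 41 cycles in both samples of rounds 1 and 2 and at 29.67 and 26.55 in round 3, while the other members are at 20.67 to 32.31 throughout.

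**Figure D5:**
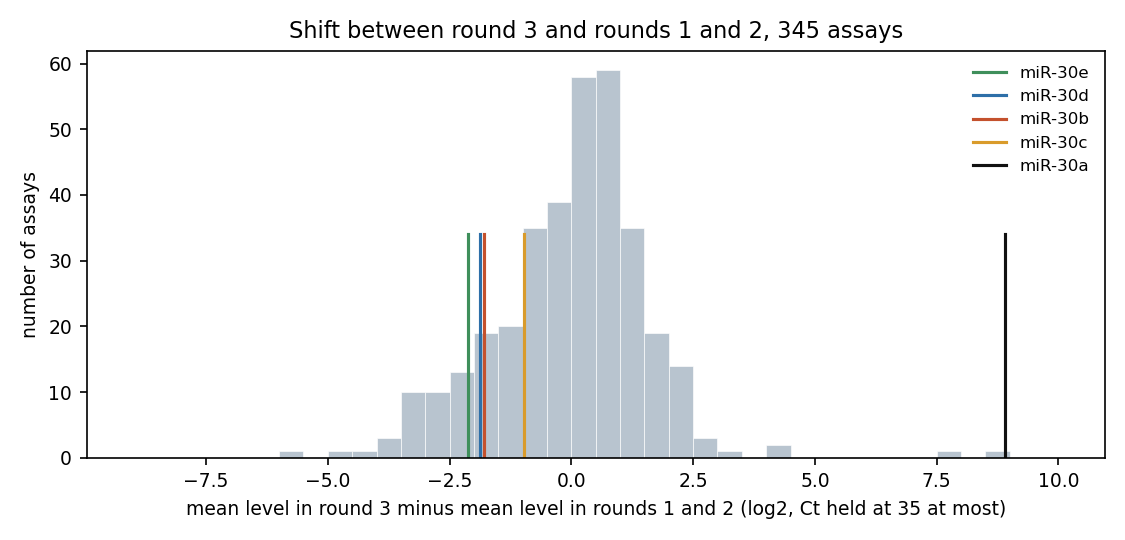
Number of assays by the mean level in round 3 minus the mean level in rounds 1 and 2 (log2), over 345 assays with every Ct held at 35 at most, with vertical lines at the 5 miR-30 guide strands. miR-30a is the highest, with a lower bound of 8.90, and the other 4 lie between -2.13 and -0.97, inside the main body of assays.

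The order of the members was read from their levels, with the limit that each assay has its own primer, so differences between assays also hold differences in amplification. In both groups miR-30d had the highest mean level, followed by miR-30c, miR-30b and miR-30e. In DC-primed cells the means were 3.09 ± 2.18, 1.40 ± 1.97, 1.23 ± 3.83 and 0.97 ± 2.43 (SD, n = 3). In B cell-primed cells they were 2.43 ± 0.036, 1.72 ± 0.62, 1.17 ± 1.00 and -0.014 ± 1.43. miR-30d exceeded miR-30c in all 3 samples of each group, by 1.70 ± 1.72 in DC-primed cells and 0.71 ± 0.60 in B cell-primed cells, and it was the highest member in every sample but the DC-primed one of round 1, where miR-30b was. miR-30c and miR-30b did not differ beyond their spread in either group, at 0.17 ± 1.99 in DC-primed cells and 0.55 ± 0.77 in B cell-primed cells. miR-30b exceeded miR-30e in 1 of 3 DC-primed and 3 of 3 B cell-primed samples. By mean level over the 6 samples the members ranked 42nd (miR-30d), 73rd (miR-30c), 87th (miR-30b) and 107th (miR-30e) of 274 assays.

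Whether a member responded differently from the rest was tested on its level minus the mean of the other 3, from which the authors' per-sample number drops out. DC-primed minus B cell-primed, this was 0.85 for miR-30e, 0.42 for miR-30d, -0.38 for miR-30b and -0.89 for miR-30c. Two-sided exact permutation tests over the 6 samples gave p = 0.5, 0.6, 0.8 and 0.4, or 0.8 each after adjustment over the 4 comparisons, where 3 samples against 3 allow no p below 0.1. For miR-30e the value was -1.89, 0.56 and -1.48 in DC-primed cells of rounds 1, 2 and 3, against -2.62, -0.72 and -2.01 in B cell-primed cells. It was thus the higher one in DC-primed cells in every round, and with the rounds paired the exact sign-flip p was 0.25, the smallest that 3 rounds allow. The exact sign-flip p was 0.5 for miR-30c, 0.75 for miR-30d and larger still for miR-30b. These were not adjusted over the 4 members.

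Among the members, levels over the 6 samples correlated most for miR-30b and miR-30c (Pearson r = 0.93) and for miR-30d and miR-30e (0.87). The other pairs lay between 0.57 for miR-30c and miR-30d and 0.78 for miR-30b and miR-30d. miR-30c and miR-30e, whose hairpins share the Nfyc gene, stood at 0.60. These values describe 6 samples that share the per-sample number, and the DC-primed samples of rounds 1 and 3 weigh most in them.

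Of the passenger strands, the level of miR-30e* varied with that of its guide across the DC-primed samples, and the level of miR-30c-1* varied the opposite way. Over the 6 samples, which share the per-sample number, Pearson r was 0.52 for miR-30e with miR-30e* and -0.76 for miR-30c with miR-30c-1*, and over the 3 DC-primed samples it was 0.96 and -0.83. miR-30e* had levels of -0.46, -1.98 and -4.01 in DC-primed cells of rounds 1, 2 and 3, against -0.65, -1.43 and -2.78 in B cell-primed cells, with the DC-primed sample lower in rounds 2 and 3. miR-30a* had levels of -1.63, -1.11 and -1.37 in DC-primed cells, against -1.65, -1.78 and -2.40 in B cell-primed cells. It was the steadiest strand of the family in DC-primed cells, with an SD of 0.26, and its groups did not overlap, by 0.02 between the nearest samples; 37 of 274 assays (13.5%) had groups that did not overlap, 15 of them (5.47%) with the DC-primed samples higher, and none of the tested guide strands did. miR-30c-1* had levels of -5.07, -3.27 and -1.06 in DC-primed cells, against -4.32, -4.41 and -2.81 in B cell-primed cells. Its raw Ct stayed between 30.44 and 31.73 in all 6 samples, a range of 1.29 cycles that was the 8th narrowest of 274, where the median range was 4.54. The level of this strand thus followed the authors' per-sample number, which ran from 26.2 to 30.5 cycles. Its course opposite to miR-30c in DC-primed cells was one of levels and not of raw Ct. There the Ct was 22.51, 28.22 and 30.18 for miR-30c and 31.25, 31.73 and 31.52 for miR-30c-1*, both higher in rounds 2 and 3 than in round 1.

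Of the passenger strands, 2 of 3 differences were positive and none was called by limma. They were 0.71 ± 1.05 (SE) for miR-30c-1*, 0.57 ± 0.63 for miR-30a* and -0.53 ± 1.01 for miR-30e*, with adjusted p-values of 0.971 to 0.986 and a median of 0.57. miR-30b* (human-named) had a Ct of 35.60 to 37.29 in 4 of 6 samples and none in the DC-primed sample of round 3 and the B cell-primed sample of round 2, so it was not tested. miR-30a* and miR-30e*, which differ at 1 base (A18G, miR-30e* first), both stayed below Ct 35 in every sample, also in rounds 1 and 2, where the miR-30a guide assay did not.

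Guide minus passenger level for the Mir30e hairpin was 3.22, 3.92 and 2.22 in DC-primed cells, against -0.76, 2.88 and 2.69 in B cell-primed cells, above 0 in 5 of 6 samples. The miR-30c guide, which both Mir30c hairpins give, minus miR-30c-1* is no ratio of the arms of 1 hairpin; it was 8.74, 3.51 and 1.34 in DC-primed cells, against 5.52, 6.82 and 4.35 in B cell-primed cells. The differences were 1.52 and -1.03, and neither passed an exact permutation test (p = 0.4 and 0.7, or 0.7 each after adjustment over 2 comparisons). For Mir30a no such value was tested, since the guide was past the Ct limit in rounds 1 and 2.

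Other miRNAs known to target Prdm1 were read beside the family. The list held let-7 members, miR-98, miR-9 and the miR-125 pair, of which 10 of 12 were tested, 9 had positive differences, 1 a negative one and none was called. The median was 0.60, the largest difference 2.08 (miR-125a-5p) and the smallest -0.37 (miR-125b-5p). By round the median of the 10 tested, most of them let-7 members, was 0.70, 1.46 and -0.11. That was a smaller disagreement between rounds than that of miR-30. miR-9 and miR-98 were past the Ct limit in 1 or more samples and are not in these medians. The raw Ct of miR-9 was 24.72, 30.15 and 38.10 in DC-primed cells of rounds 1, 2 and 3, against 33.25, 34.58 and 35.48 in B cell-primed cells. That of miR-98 in round 3 was 35.25 in the DC-primed and 28.96 in the B cell-primed sample.

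Guide strands known to fall on T cell activation were miR-150, miR-26a, miR-26b, miR-29a, miR-29b, miR-29c, miR-181a and miR-181b. They had 5 positive and 3 negative differences among 8 tested, none called, with a median of 0.39. The largest was 1.31 (miR-181a) and the smallest -1.07 (miR-29c). Their median by round was 2.29, 0.74 and -1.35, so this median was also higher in the DC-primed sample in round 1 and lower in round 3. miR-181b went the other way in round 3, at 3.99 in the DC-primed and 2.00 in the B cell-primed sample. The list shares miR-150 and miR-181a with the T cell markers, so the 2 lists are not independent.

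The assays outside the family whose level was most like the mean of the 4 members over the 6 samples were miR-378* (r = 0.98), miR-181a (0.94), miR-15a (0.93), miR-690 (0.91) and miR-29b (0.91). Of 270 other tested assays, 22 had r above 0.8, and the median r was -0.27. miR-181a, a miRNA that sets T cell receptor sensitivity, had levels of 1.94, -0.38 and -3.05 in DC-primed cells of rounds 1, 2 and 3, against -2.74, -1.44 and -1.26 in B cell-primed cells. With each group's mean taken off, the 5 most alike were miR-378* (0.99), miR-181a (0.98), miR-187 (0.98), miR-99b (0.96) and miR-103 (0.96). miR-99b is on the list of myeloid and dendritic cell markers.

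In the authors' deposited table the p-values, from a comparison paired by round, were 0.386 for miR-30a, 0.624 for miR-30e, 0.647 for miR-30d, 0.841 for miR-30c and 0.985 for miR-30b, with fold changes of DC-primed over B cell-primed of 1.53, 1.98, 1.58, 0.799 and 1.04. By that p-value miR-30a ranked 144th and miR-30b 343rd of 345 assays. For miR-30a that table's value rests on 4 Ct past 41 among 6.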

How the data were processed

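Per the labels' protocols, RNA was poly(A)-tailed, reverse transcribed with a tagged oligo-dT primer and amplified with SYBR Green from a miRNA-specific forward primer and a universal reverse primer. The authors deposited raw Ct values and dCt values. The authors made each dCt, a log2 quantity of reversed sign, by subtracting from Ct the geometric mean over all Ct of that sample, per the file headers; over the 350 miRNA assays here that mean was 0.727 to 1.05 cycles above the number subtracted, so the values do not reproduce this formula over those assays. The deposited p-value is from a paired two-tailed t-test, and the deposited fold change is a linear ratio with DC-primed on top. File names of the Ct and dCt tables are swapped relative to their headers, which the values bear out. For the 5 members, no value was filled in by the authors, and Ct minus dCt gave the same number per sample within 0.02 cycles. Instrument and Ct rule: not given in the sources used here.

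Levels are minus dCt. limma 3.58.1 (R 4.3.3; lmFit, then eBayes without trend or block, two-sided) was fitted on 274 assays with Ct below 35 in all 6 samples, with Benjamini-Hochberg adjustment at 0.05, and was tested on simulated data. Exact permutation over samples was used for contrasts within the family, without the miR-30a guide minus passenger contrast, whose guide was past the Ct limit. Python 3.11.15 and matplotlib 3.10.9 drew the figures. The DC-primed and B cell-primed samples were grouped by title. Alternatives were 4 other scalings, 3 other Ct limits, a trend, the round as a block, the paired t-test, and each sample or round left out; those leaving out rounds were chosen after seeing the data. Deviations of samples of 1 round from their groups' means correlated at 0.16, 0.14 and 0.46 over the tested assays, weakly in rounds 1 and 2. Each was above 0.1, so the rounds in the titles were taken to pair the samples in the alternatives that use rounds. These values are weak ground for a pairing. The DC-primed sample of round 1 correlated more with the B cell-primed sample of round 2 (0.33) than with its own round. The main fit did not use the pairing. Named miRNAs were the members, all other miR-30 assays, the extremes of the lists and the 5 most alike assays; others, such as miR-223, miR-146b and miR-424*, were named after their values were seen. Members and lists were chosen with earlier results of these data known. Passenger strand names of the form miR-30e* were matched to RefSeq's 3p names. Sequences are RefSeq's for GRCm38.p6.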

Additional observations from a re-analysis of the deposited data

How the results depend on the processing

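No miR-30 guide strand was called under any of the 20 alternatives, with adjusted p-values of 0.223 to 1 over the members. The round as a replicate block left the estimates as they were and changed no call: miR-30e stayed at 0.98 (limma adjusted p = 0.892), miR-30d at 0.66, miR-30b at 0.06 and miR-30c at -0.32. The median of the members was 0.36 and ranged from -1.16 to 1.91. Over all assays the number called was 0 except without the DC-primed sample of round 3, at 2, or at 5 with that sample left out of the Ct filter too. Several signs turned. Without normalization miR-30b was at -1.27, miR-30d at -0.67 and miR-30e at -0.35. Relative to RNY3 and snoRD47 miR-30c was at 0.91. After quantile normalization miR-30b was at -0.12. Without both samples of round 1 miR-30b was at -2.66, miR-30d at -0.17 and miR-30e at -0.61. miR-30c was at 0.60 without round 2, at 0.15 without round 3, and at 0.24 without the DC-primed sample of round 3 in fit and filter. Leaving out 1 sample at a time gave -2.08 to 1.60 for miR-30b, -1.46 to 0.26 for miR-30c, -0.18 to 1.90 for miR-30d, 0.087 to 2.36 for miR-30e, -0.82 to 1.75 for the median and 0 to 2 calls over all assays. For a member minus the mean of the other 3 it gave -1.57 to 0.32 for miR-30b, -1.72 to -0.22 for miR-30c, -0.20 to 0.98 for miR-30d and 0.10 to 1.38 for miR-30e. For guide minus passenger it gave -3.14 to 0.56 for miR-30c and 0.34 to 2.15 for miR-30e. The causes of these changes were not tested. A Ct limit of 32 left miR-30c and miR-30d alone among the members. With 3 samples a group and no well replicates for an assay, precision is limited by the number of samples.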
